A study of Mus musculus with 13 samples.

Results

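The genomes of 2 myeloid leukaemias, AML and M-MPAL, out of 13 samples in a mouse series on N-Myc, were compared call by call. Members were chosen by sample name, and variant tables were held for 7 of the 13 samples. All libraries came from bone marrow of C57BL/6 mice with a stated age of 8 to 10 weeks. The AML library (acute myeloid leukaemia) was made from 2000000 Mac1+Gr1+GFP+ cells of mice with retroviral N-Myc. The M-MPAL library was made from 1000000 cells that were GFP+ and Mac1/Gr1+, without B220 and CD3/4/8, sorted from N-Myc mixed phenotype acute leukaemia. The empty control was made from 1000000 GFP+ cells of mice that the labels call empty control. GFP marks cells that took up a construct, and the labels do not name the promoter that drives N-Myc. Each group had 1 library, so no difference has a replicate check, and whether cells of several mice were pooled is not stated.

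Acute myeloid leukaemia is a block in maturation of the granulocyte and monocyte lineages, whose surface markers in mice include Mac1 (the integrin encoded by Itgam and Itgb2) and Gr1 (encoded by Ly6g, with Ly6c1 and Ly6c2 as cross-reacting relatives). In mixed phenotype leukaemia, blasts of 1 disease carry markers of more than 1 lineage, and a myeloid fraction can be sorted from it. N-Myc, encoded by Mycn, is a transcription factor of the Myc family that drives growth and proliferation. Genes that recur in human myeloid leukaemias encode signalling receptors, transcription factors such as RUNX1, cohesin, and enzymes that modify or move nucleosomes, among them the SWI/SNF complex. DNA reads give copies and variants of a marker gene and not its expression, so that the lineage of both libraries rests on the sort named in the labels.

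The 2 leukaemias differed in a gained chromosome each and in the number of single-base variants. Most single-base variants, coding or not, were called in only 1 of them. They had 1 gene, Smarca4, altered at different positions in both. Variants were single-nucleotide variants (SNVs) and short insertions or deletions (INDELs) on chromosomes 1 to 19. A variant was kept with at least 10 reads, a quality score of at least 100, at least 4 reads of the alternative allele, an alternative read share of at least 0.2, no segmental duplication, and no call of that allele at any depth in the empty control. The median depth of the deposited SNV calls was 38 reads in AML, 40 in M-MPAL and 37 in the empty control, and that of INDEL calls was 15, 15 and 16. The lowest depth of a deposited SNV was 2 reads in AML, against 5 in M-MPAL and 5 in the empty control. The files give no depth at a site without a call, so that an uncalled allele is not shown to be absent. The labels name no matched normal DNA, so that inherited and acquired variants cannot be told apart. AML was also described under a separate extraction text, with another cell number than M-MPAL and the control, and protocol and leukaemia cannot be told apart.

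Sorting gave 416 shared SNVs (exact 95% Poisson interval 377 to 458), 1019 SNVs of AML only (957 to 1084) and 1956 of M-MPAL only (1870 to 2045). A further 265 passed in AML and were called below the filter in M-MPAL, and 128 passed in M-MPAL and were called below it in AML. These intervals, like all others here, cover counting error only. The AML-only set was thus 0.521 times the size of the M-MPAL-only set (0.482 to 0.562), and the ratio lay between 0.442 and 0.616 under 9 of 11 other settings. It was 0.969 with no quality minimum beyond the deposited one and 0.168 after alleles called in any other leukaemia were left out. Under the same filter 375 SNVs (338 to 415) were called in the empty control and in neither leukaemia. The shared SNVs were 24.5% (22.4 to 26.6) of the 1700 that passed in AML and 16.6% (15.2 to 18.2) of the 2500 that passed in M-MPAL.

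INDELs divided differently. There were 667 shared INDELs (617 to 720), 4940 of AML only (4803 to 5080) and 4535 of M-MPAL only (4404 to 4669), a ratio of AML over M-MPAL of 1.09 (1.05 to 1.13). In the empty control alone there were 3331 (3219 to 3446). The direction of this ratio turned to 0.880 outside annotated repeats and to 0.787 without alleles called in the other leukaemias. Simple repeats held 85.5% of the AML-only INDELs, 85.2% of the M-MPAL-only INDELs and 87.9% of those of the empty control alone. A change of 2 bases in length made up 64.7% (63.3 to 66.0) of the AML-only INDELs, 57.9% (56.5 to 59.3) of the M-MPAL-only INDELs and 73.2% (71.7 to 74.7) of those of the control alone. A change of 4 bases made up 20.5%, 27.8% and 14.3% in the same order. Deletions were 62.4% of the AML-only set, 54.8% of the M-MPAL-only set and 74.3% of the control's.

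Both leukaemias had many INDELs on the chromosome that each had gained. On chromosome 16, 386 INDELs were AML only and 141 M-MPAL only, a ratio of 2.74. On chromosome 15, 190 were AML only and 351 M-MPAL only, a ratio of 0.541. On the other 17 chromosomes the ratio ran from 0.708 (chromosome 19) to 1.23 (chromosome 2). Depth moved with these counts. The median depth of the deposited INDEL calls on chromosome 16 was 19 reads in AML, 15 in M-MPAL and 15 in the control, and on chromosome 15 it was 15 in AML, 21 in M-MPAL and 16 in the control. The part of depth in these counts was not tested. SNVs showed no such shift: the ratio of AML-only to M-MPAL-only SNVs was 0.582 on chromosome 16 and 0.532 on chromosome 15, within the range of 0.347 to 1.15 on the others.

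**Figure D1:**
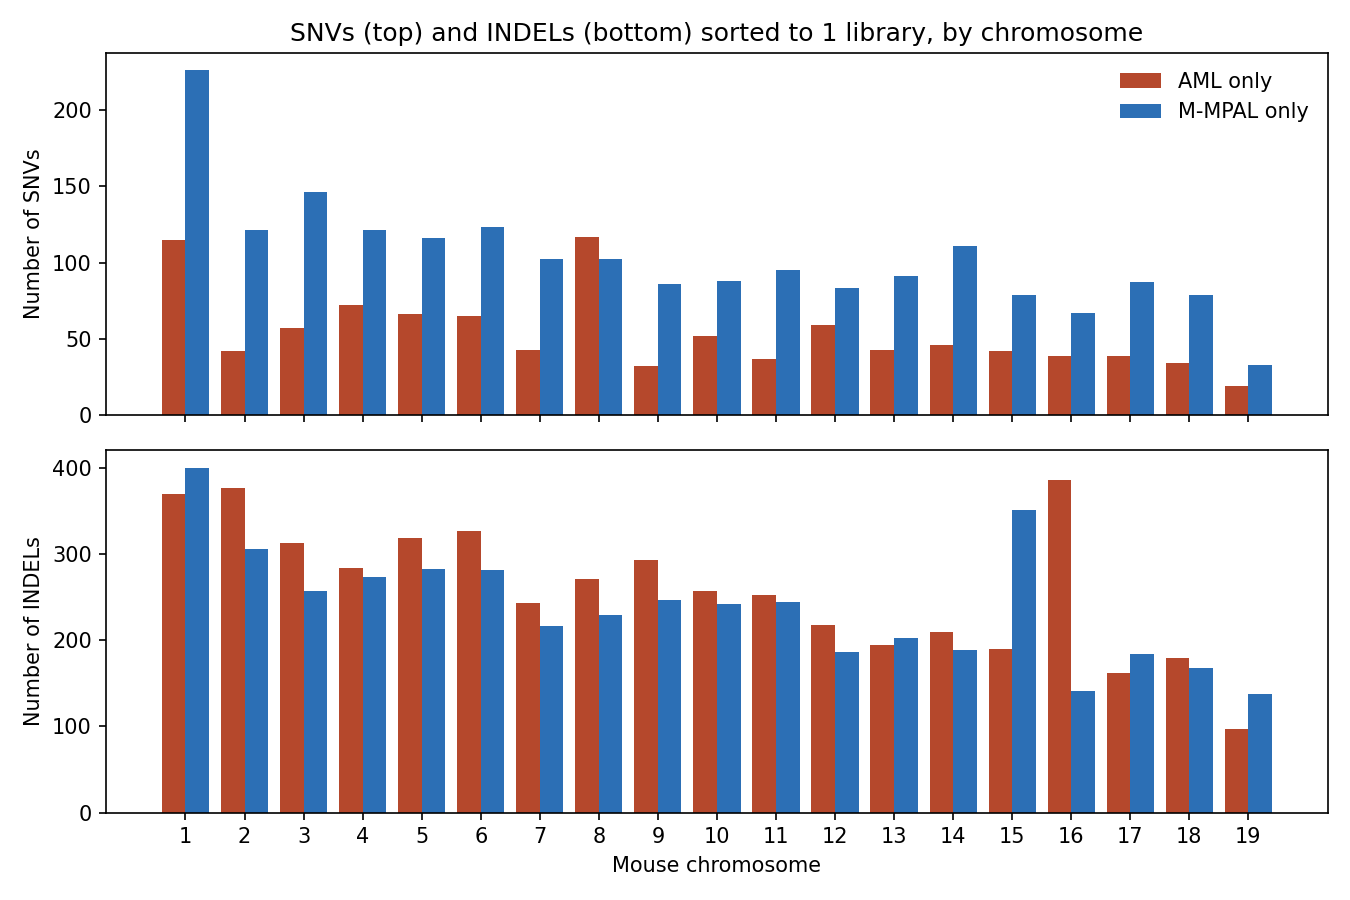
Number of SNVs (upper panel) and INDELs (lower panel) sorted to AML only (left bar) and M-MPAL only (right bar) on each mouse chromosome. INDELs of AML only exceed those of M-MPAL only most on chromosome 16 (386 against 141) and fall furthest below them on chromosome 15 (190 against 351), while SNVs of AML only exceed those of M-MPAL only on chromosome 8 (117 against 102).

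The gains themselves were read from the deposited copy number tables, where FREEC assigns each stretch of 1 kb steps an integer number of copies and 2 is the normal state. In AML, 159 gain calls covered 94.4 Mb of chromosome 16, which was 99.6% of the stretch between the first and last of them, and 154 of the 159 gave 3 copies. In M-MPAL, 157 gain calls covered 99.6 Mb of chromosome 15, 98.9% of the stretch, and 155 gave 3 copies. Chromosome 15 had 0.158 Mb of gains in AML and 0.232 Mb in the control. Chromosome 16 had 0.078 Mb in M-MPAL and 0.036 Mb in the control. Neither leukaemia thus had a gain of this extent on the chromosome gained in the other.

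Read depth at SNVs called in all 3 libraries gave a second readout of the same reads. At 262 such sites on chromosome 16 the median depth ratio of AML over M-MPAL was 1.39 (quartiles 1.17 and 1.69). At 474 sites on chromosome 15 it was 0.766 (0.659 and 0.905). The medians of the other 17 chromosomes lay between 0.95 and 1.125. Over the empty control, AML stood at 1.37 on chromosome 16 and M-MPAL at 1.56 on chromosome 15, against 0.867 to 1.25 for AML and 0.875 to 1.14 for M-MPAL on those 17 chromosomes. Each gained chromosome therefore stood outside the range of the others in its own leukaemia. AML on chromosome 15 (1.18) and M-MPAL on chromosome 16 (0.974) lay inside it.

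**Figure D2:**
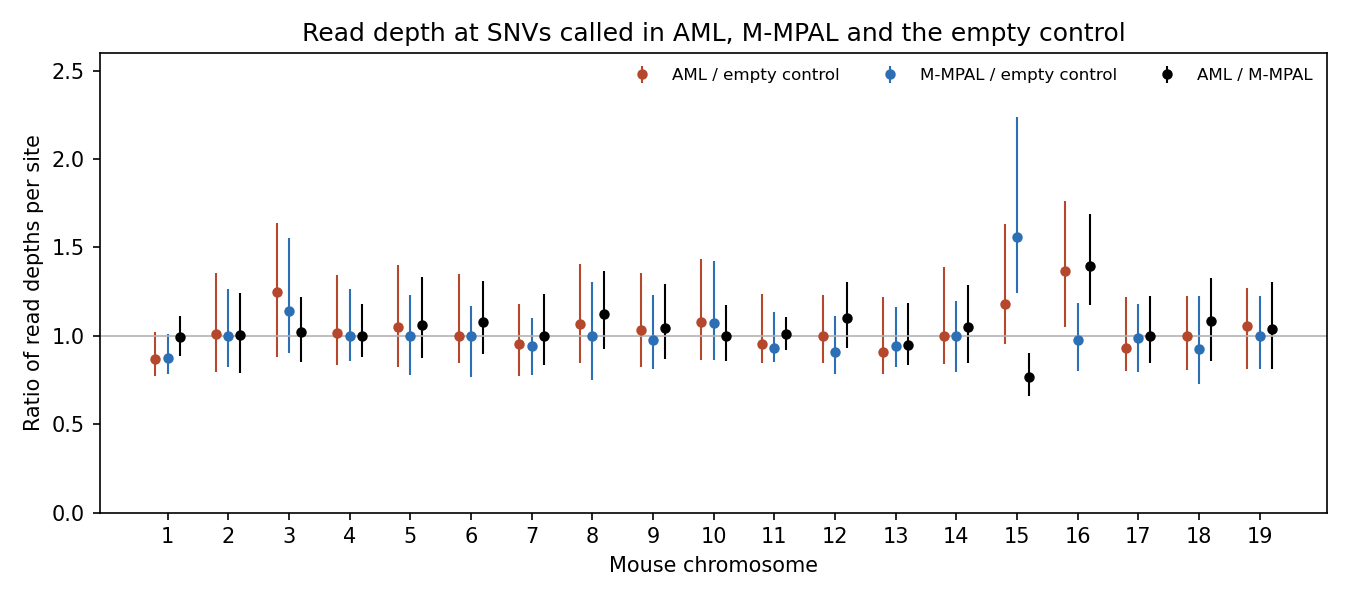
Median ratio of read depths per site on each chromosome, with quartiles as bars, for AML over the empty control, M-MPAL over the empty control and AML over M-MPAL. The points that stand apart are chromosome 16 in AML (1.37 over control) and chromosome 15 in M-MPAL (1.56 over control), and the ratio of AML over M-MPAL is 1.39 and 0.766 there.

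Alternative read shares on the gained chromosomes were set against those on other chromosomes. Of 79 M-MPAL-only SNVs on chromosome 15, 49.4% (exact Clopper-Pearson interval 37.9 to 60.9) had a share under 0.4. The value was 25.9% (23.9 to 28.0) of 1810 on chromosomes other than 15 and 16. On chromosome 16, which M-MPAL had not gained as a whole, it was 31.3% (20.6 to 43.8) of 67, and this interval overlaps that of chromosome 15. A share of 0.9 or more was held by 0 of the 79 (up to 4.56%), 0 of the 67 (up to 5.36%) and 4.03% (3.17 to 5.04) of the 1810. These intervals overlap, so no difference of chromosome 15 is shown in that band. The gained chromosome of AML had a lower percentage of low shares, with overlapping intervals, and a higher percentage of high shares. On chromosome 16 of AML, 4 of 39 AML-only SNVs (10.3%, 2.87 to 24.2) had a share under 0.4, against 26.3% (23.5 to 29.3) of 938 on chromosomes other than 15 and 16. On the same chromosome 13 of 39 AML-only SNVs (33.3%, 19.1 to 50.2) had a share of 0.9 or more, against 10.0% (8.17 to 12.1) of the 938. All 13 were called in another leukaemia library, 10 of them in B-ALL, and 12 were listed in dbSNP. Their median depth was 13 reads, against 26 for all AML-only SNVs. Across chromosomes 1 to 19 the median share was 0.478 in the AML-only set (quartiles 0.392 and 0.594) and 0.467 in the M-MPAL-only set (0.391 and 0.550). Shared SNVs had medians of 0.662 in AML and 0.648 in M-MPAL.

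Genes of 8 lists were set against the copy number calls. Of 208 list genes, 4 (1.92%) were touched by a gain in AML and 12 (5.77%) in M-MPAL, against 0 in the control. Over all 20665 protein-coding genes of chromosomes 1 to 19 the share was 3.48% in AML, 4.02% in M-MPAL and 0.348% in the control. All 3 Gr1 genes, Ly6g, Ly6c1 and Ly6c2, had 3 copies in M-MPAL and no call in AML or the control, as had Csf2rb, the common beta chain of the receptors for GM-CSF and interleukin-3. Itgam and Itgb2, which encode the Mac1 integrin, had no copy number call in AML, M-MPAL or the control. In AML the gain held Runx1, a transcription factor needed for blood stem cell formation, with 3 copies, and no call touched Runx1 in M-MPAL. The AML gain also held Igll1 and Vpreb1, which encode the surrogate light chain of the pre-B cell receptor, and Prkdc, a kinase of DNA end joining. The M-MPAL gain held Myc, the first known member of the family of Mycn, and Rad21, a cohesin subunit. It also held Il7r, the interleukin-7 receptor, Xrcc6, the end-joining protein Ku70, Kmt2d, a histone H3 methyltransferase, and Arid2 and Smarcd1, subunits of SWI/SNF complexes. Mycn itself had no copy number call in these 3 libraries.

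No list gene was touched by a loss in AML, M-MPAL or the control, where 0.00484%, 0.0484% and 0.029% of all protein-coding genes were. The histone methyltransferase list (29 genes) had 0 genes in AML gains and 1 in M-MPAL gains, and the SWI/SNF list (28 genes) had 0 and 2. The myeloid lineage list (26 genes) had 1 and 4, the lymphoid lineage list (27) 2 and 1, and the list of cytokine and RAS signalling genes (31) 0 and 3. The myeloid leukaemia list (36) had 1 and 1, the DNA repair list (33) 1 and 1, and the Myc network list (19) 0 and 1. The genes behind these counts all lay on chromosome 16 in AML, and on chromosome 15 in M-MPAL except Hras. Ly6c1, Ly6c2 and Ly6g lie together there, between positions 75044018 and 75159128. The counts by list are thus not separate events.

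MicroRNA genes lay in both gains. MicroRNAs are short RNAs that pair with messenger RNAs mostly through their seed, bases 2 to 8, and lower their output. Of the microRNA genes listed in RefSeq (build GRCm38.p6), 35 of 35 on chromosome 16 lay in AML gains. On chromosome 15, 49 of 50 lay in M-MPAL gains. Gains also touched 679 of 679 protein-coding genes of chromosome 16 in AML and 772 of 776 of chromosome 15 in M-MPAL. The microRNA counts thus follow from gains of nearly whole chromosomes. On chromosomes 1 to 19, gains held 35 of 1136 microRNA genes in AML, 50 in M-MPAL and 0 in the control. A few with known roles in blood are shown, chosen after their positions were seen, with the seed in capitals. The AML gain of chromosome 16 held these 4, of which miR-155 is induced in activated lymphocytes and macrophages and miR-99a, let-7c and miR-125b form 1 cluster that is active in blood stem cells:
miR-155-5p: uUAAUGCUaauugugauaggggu
miR-99a-5p: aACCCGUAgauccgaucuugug
miR-125b-5p: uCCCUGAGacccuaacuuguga
let-7c-5p (gene Mirlet7c-1): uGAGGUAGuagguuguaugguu

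The M-MPAL gain of chromosome 15 held another gene for the same mature let-7c and its neighbour let-7b, with the same seed:
let-7c-5p (gene Mirlet7c-2): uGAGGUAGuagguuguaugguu
let-7b-5p: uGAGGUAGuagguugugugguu

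The let-7 seed was thus in a gained region of both leukaemias, through a different gene on a different chromosome in each. The mature let-7c of AML lay at chr16:77599672-77599693 and that of M-MPAL at chr15:85706616-85706637, both on the plus strand. Copies of a gene are not a level of its RNA, and no RNA was measured here.

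Outside the gained chromosome, AML had 86 gains and 1 loss, and M-MPAL had 131 gains and 19 losses. The empty control had 203 gains and 19 losses on chromosomes 1 to 19, thus as many losses as M-MPAL. Most gains recurred. Of the AML gains 55 were covered by at least 50% by a gain of the control and 62 by a gain of M-MPAL, and of the M-MPAL gains 69 were covered by the control and 83 by AML. Among them was an 11-copy call in AML at chr1:88212001-88276000 over the Ugt1a cluster, genes of glucuronide conjugation, and Mroh2a, which was covered whole by gains of M-MPAL and the control. In that stretch reads of several copies cannot be told apart, and variants named there below are uncertain. On the 17 other chromosomes, bases gained in both leukaemias were 76.5% of the gained bases of AML and 59.5% of those of M-MPAL, and 92.2% of these common bases were also gained in the control. No loss overlapped between AML and M-MPAL, and none of the 20 losses was covered by at least 50% by a loss of the control.

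Calls of at least 20 kb that neither the other leukaemia nor the control covered by at least 50% numbered 3 gains and 1 loss in AML, and 7 gains and 7 losses in M-MPAL. The AML gains took 40 kb with Ppih, a spliceosomal peptidyl-prolyl isomerase, and Ybx1, an RNA-binding protein, at 3 copies, 101 kb at Parm1 at 4 copies, and 86 kb on chromosome 8 at 3 copies. The 86 kb directly follow a 109 kb gain of AML, of which gains of M-MPAL and of the control each covered 99.1%. The AML loss took 74 kb within Ptprg, a receptor-type tyrosine phosphatase, at 1 copy. In M-MPAL the largest gain took 96 kb at chr7:141179001-141275000, at 3 copies. It held Hras, a RAS GTPase, Irf7, a transcription factor of the interferon response, Rassf7, Phrf1, Cdhr5, Lrrc56, Lmntd2 and the microRNA gene Mir210, whose product is induced by hypoxia:
miR-210-3p: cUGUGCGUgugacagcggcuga

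A gain of 54 kb on chromosome 9 of M-MPAL held Sdhd, a subunit of succinate dehydrogenase, and Il18, an inflammatory cytokine, beside Timm8b and Pih1d2. Smaller gains touched Otor and Snrpb2 (31 kb), Thap1 (30 kb) and Atp8a2 (51 kb). AML also had gain calls at Thap1 with 3 copies, which covered 36.7% of the M-MPAL call, so that a gain there was not of M-MPAL alone. Losses of M-MPAL touched Malrd1 (46 kb), Alx1 (45 kb) and Dpp10 (24 kb) at 1 copy each. No loss touched the T cell receptor loci Trb, Tra/Trd and Trg or the immunoglobulin loci Igh, Igk and Igl in AML, M-MPAL or the control, and the only gain there was the AML gain of chromosome 16, which holds Igl.

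Coding changes were few. Most were called in only 1 of the 2 leukaemias, and so were most SNVs of all kinds. All SNVs together numbered 1019 in AML only, 1956 in M-MPAL only and 416 shared. Protein-altering SNVs, which are missense, stop-gaining and splice-site changes by the deposited annotation, numbered 11 (5.49 to 19.7) in AML only, 17 (9.90 to 27.2) in M-MPAL only and 4 (1.09 to 10.2) shared, against 6 (2.20 to 13.1) in the empty control alone. AML only had 10 missense and 1 splice-site change. M-MPAL only had 13 missense, 2 stop-gaining and 2 splice-site changes. No INDEL in the 3 sets altered a coding exon or splice site, which allows up to 3.69 by the exact interval in each. In each leukaemia 0.0968% of all protein-coding genes had such a variant. The AML share includes several genes of the Ugt1a cluster that were counted through 1 splice-site SNV, in the stretch called uncertain above. Exonic calls were 1.67% (0.975 to 2.66) of AML-only SNVs, 1.43% (0.953 to 2.06) of M-MPAL-only SNVs and 2.40% (1.10 to 4.51) of the control's, with overlapping intervals. Synonymous SNVs numbered 7 in AML only and 13 in M-MPAL only. Intergenic SNVs were 63.2% and 61.8%, and intronic SNVs 28.3% and 31.5%, of the AML-only and M-MPAL-only sets.

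Smarca4, which encodes BRG1, the ATPase that drives SWI/SNF chromatin remodelling, was the one gene altered in both by different alleles. AML had D1225H in exon 26 on 13 of 28 reads (46.4%, 27.5 to 66.1), at chromosome 9, position 21677576 of mm10. M-MPAL had E535K in exon 10 on 25 of 53 reads (47.2%, 33.3 to 61.4), at position 21642434. Neither allele was called in the other leukaemia, in the control or in B-ALL, T-ALL, AUL and T-MPAL. Smarca4 had no copy number call in AML, M-MPAL or the control. Both shares had intervals that include 50%, and the intervals overlapped between the leukaemias.

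A further list gene was altered in M-MPAL. Setd2, a methyltransferase of histone H3 that acts on transcribed genes, had the stop-gaining change Q1643X in exon 8 on 10 of 33 reads (30.3%, 15.6 to 48.7) in M-MPAL, called in no other library. In the lists, 1 of 208 genes (0.481%) had a protein-altering variant in AML and 2 (0.962%) in M-MPAL, where the shares over all protein-coding genes are those given above. These counts are the genes just named, Smarca4 in both and Setd2 in M-MPAL.

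The other AML-only changes fell into those called in a further leukaemia and those called in none. In no other library were D581N in Rgsl1, a regulator of G protein signalling (14 of 23 reads), A678S in Pcdhb16, a protocadherin (12 of 27), and V1193I in AI314180 (9 of 22), beside 1 change in a predicted gene. Amz1, a metallopeptidase gene, had E78Q on 36 of 38 reads in AML (94.7%, 82.3 to 99.4) and on 11 of 16 in B-ALL. Also called in B-ALL were R78W in Krtap15, a keratin-associated protein (18 of 40 reads in AML), and R112C in Slc45a4, a membrane transporter (14 of 32). So were H3624N in Csmd3, a large membrane protein with complement-like domains (10 of 16), and L1155V in Pik3c2b, a class II phosphoinositide 3-kinase (8 of 23). A splice-site SNV of the multi-copy Ugt1a cluster had 51 of 170 reads in AML, and B-ALL and T-MPAL had it too. All 6 AML-only changes that another leukaemia shared were thus called in B-ALL, as were 723 of all 1019 AML-only SNVs (71.0%).

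Some M-MPAL-only changes were also called in T-MPAL. Of the 17, 8 were called there, beside 674 of all 1956 M-MPAL-only SNVs (34.5%). Of these 8, A1665T in the muscle gene Cmya5 (16 of 25 reads in M-MPAL) was also called in T-ALL and AUL. Csmd1, a relative of Csmd3, had 2 such changes, P3183S on 7 of 16 and D742Y on 16 of 27 reads in M-MPAL. Atg5, needed for autophagosome formation, had S106R on 7 of 19 reads. Pdhx, Ttpa and Neu3 had G226D (14 of 26), R32K (13 of 24) and R125H (10 of 21), and 1 change lay in a vomeronasal receptor gene.

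The other 9 M-MPAL-only changes were called in no other library. They include Smarca4 and Setd2, above. Lepr, the leptin receptor, a member of the cytokine receptor family, had the stop-gaining change G818X on 7 of 21 reads (33.3%, 14.6 to 57.0). Splice sites were changed in Stau1, which binds double-stranded RNA (11 of 28 reads), and in Arhgap42, a GTPase-activating protein (11 of 19). Abcd2, a peroxisomal fatty acid transporter on the gained chromosome 15, had A83T on 17 of 50 reads (34.0%, 21.2 to 48.8). D792N in Ttc16 (12 of 27), A350S in Slc12a5, a potassium chloride cotransporter (9 of 29), and L553P in Crim1, a regulator of BMP signalling (8 of 26), complete them.

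The 4 shared protein-altering SNVs were missense. Of the 8 exonic SNVs of the shared set, 3 had an unknown coding effect by the deposited annotation and were not counted. The AML-only and M-MPAL-only sets had 0 such SNVs. Hmgb2, a chromatin protein that bends DNA, had P175S on 12 of 28 reads in AML (42.9%, 24.5 to 62.8) and 15 of 31 in M-MPAL (48.4%, 30.2 to 66.9). Gcsam, a signalling protein of germinal centre B cells, had D147N on 23 of 40 reads in AML (57.5%, 40.9 to 73.0) and 12 of 28 in M-MPAL (42.9%, 24.5 to 62.8). Gcsam lies on chromosome 16, which AML had gained. Both were also called in B-ALL and T-MPAL and not in the control. The others, Y232F in Ugt1a1 and S750L in Mroh2a, lay in the multi-copy region of chromosome 1, with 155 and 109 reads in AML and 167 and 118 in M-MPAL, and both were listed in dbSNP. A further 2 missense SNVs passed in AML and were called below the filter in M-MPAL. Muc4, a membrane mucin on chromosome 16, had E1864Q on 14 of 14 reads in AML and 5 of 5 in M-MPAL. Mroh2a had A685D on 26 of 121 reads in AML and 24 of 143 in M-MPAL, and both alleles were listed in dbSNP. With Smarca4, 5 genes had a passing protein-altering variant in both leukaemias, 4 by the same allele.

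**Figure D3:**
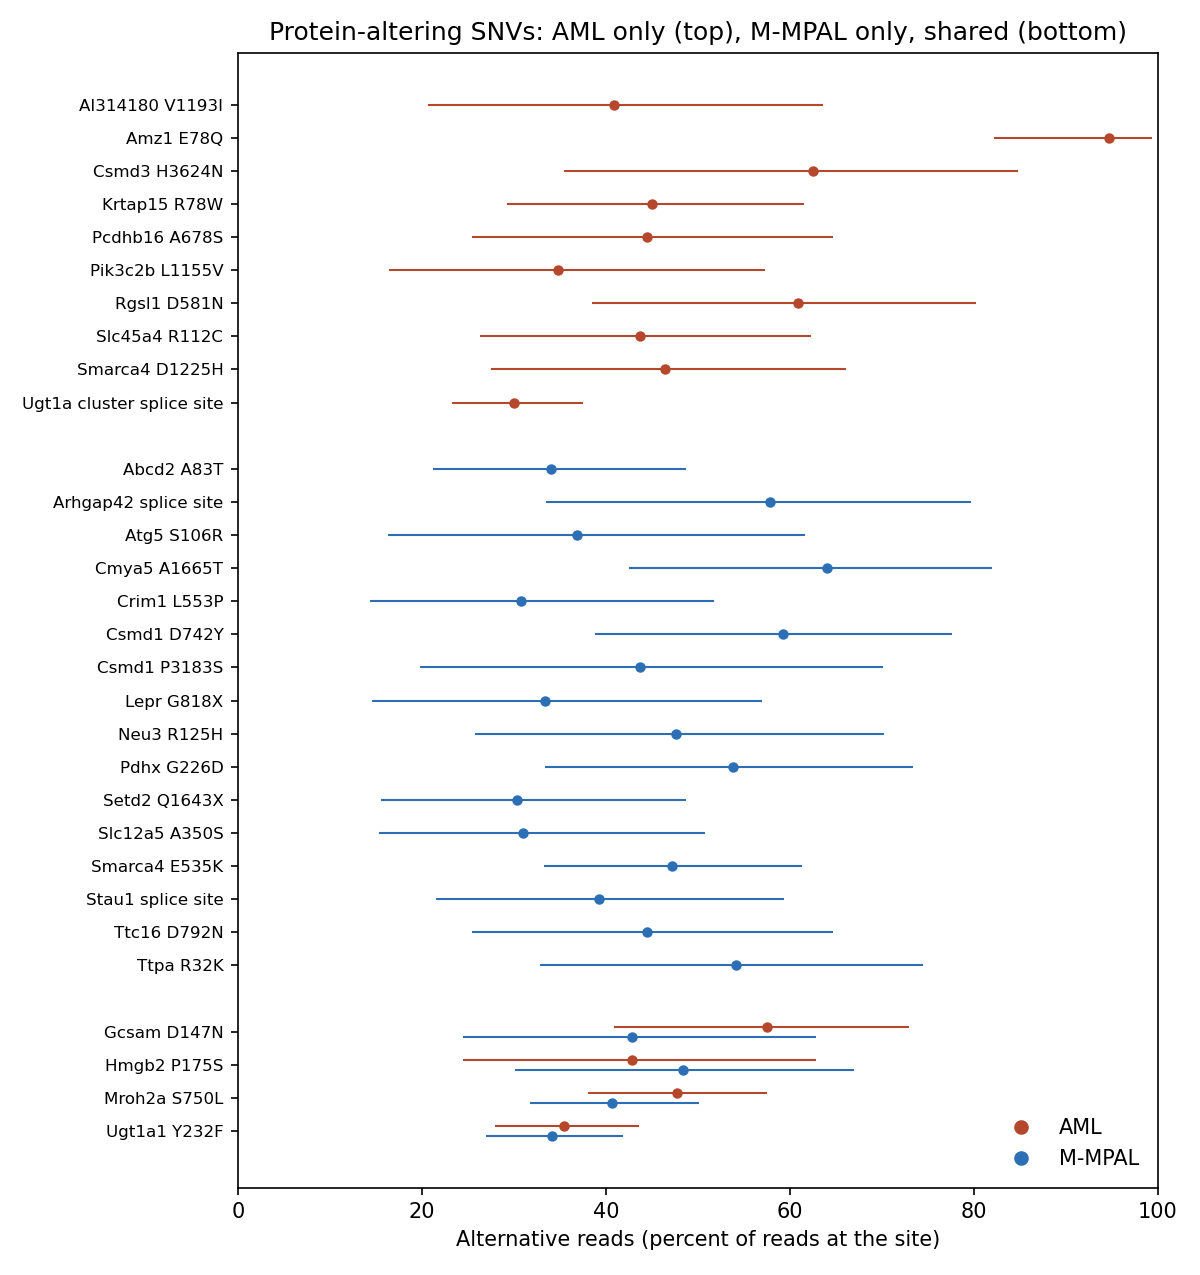
Alternative reads in percent of all reads at each protein-altering SNV, with exact 95% Clopper-Pearson intervals, for the named SNVs of AML only (top), M-MPAL only (middle) and shared SNVs (bottom), where AML is drawn above M-MPAL. All points lie between 30.0% and 64.0% except Amz1 in AML at 94.7%, and both Smarca4 changes lie near each other at 46.4% and 47.2%.

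Mycn encodes N-Myc, which the retrovirus supplies in both leukaemias. It had SNV calls in its exons in M-MPAL and none in AML or the control. All were synonymous: R124R in exon 2 on 13 of 39 reads (33.3%, 19.1 to 50.2), G307G in exon 3 on 8 of 33 (24.2%, 11.1 to 42.3) and Q390Q in exon 3 on 8 of 37 (21.6%, 9.83 to 38.2). Only R124R passed the filter, since the quality of the other 2 was 63 and 85. T-MPAL had the same 3 changes on 28 of 60, 12 of 33 and 28 of 57 reads, and no call lay in a Mycn exon in B-ALL, T-ALL or AUL. Reads of the mouse gene and of a retroviral copy cannot be told apart in these tables.

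Variants in introns reached further genes of the lists. A passing SNV lay inside 5 of 208 list genes in AML (2.40%) and 10 in M-MPAL (4.81%), against 1.65% and 2.91% of all protein-coding genes. In AML only, intronic SNVs lay in Idh2, the mitochondrial isocitrate dehydrogenase that is a recurrent target in human AML (13 of 36 reads), Blm, a helicase of DNA repair (8 of 21), and Ebf1, a factor of early B cells (6 of 17). In M-MPAL only, they lay in the SWI/SNF genes Arid1b (13 of 23) and Smarcd3 (7 of 19) and the methyltransferase genes Kmt2c (11 of 28) and Smyd3 (9 of 27). Sos1, an activator of RAS, had an intronic SNV on 35 of 35 reads in M-MPAL, and Cd8b1 and Ebf1 had 1 each on 20 of 31 and 12 of 24. INDELs inside list genes numbered 25 in 16 genes in AML only and 19 in 15 genes in M-MPAL only, and none lay in a coding exon. In AML only these were 7.69% of the 208 list genes, against 6.27% of all protein-coding genes, and in M-MPAL only 7.21%, against 5.82%. Runx1 had 5 intronic INDELs in AML only, on the gained chromosome where INDEL calls were more frequent, and 0 in M-MPAL only. Etv6, a transcription factor of blood stem cells, had 1 in AML only and 3 in M-MPAL only.

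Few SNVs lay near gene starts. Windows from 250 bases before to 50 after RefSeq gene starts held 7 AML-only SNVs (0.687%), 4 M-MPAL-only SNVs (0.204%) and 3 shared ones (0.721%). Those outside dbSNP and outside predicted genes are shown, chosen after they were found, with the changed base in capitals. Stretches are read from RefSeq (GRCm38.p6) on the plus strand, the reference base there equals that of the files, and the substitution counts from 1 at the 5′ end. In AML only, C15T lies before Cnep1r1, a regulator of a lipid phosphatase at the nuclear membrane (chr8:88118621-88118649), with 16 of 33 reads, and G15T before Kif20b, a kinesin of cell division (chr19:34922201-34922229), with 12 of 27:
Cnep1r1: tgggttcccgaaggCgtttgctgaaatta
Kif20b: gctactgccccatcGgtcgcccggagcac

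In M-MPAL only, C15T lies before a start of Cbfa2t3, a corepressor of the ETO family that acts in blood progenitors (chr8:122678294-122678322), with 11 of 21 reads. G15C lies before Ldlrad3, a relative of the LDL receptor (chr2:102186514-102186542), with 10 of 25, and T15C before the imprinted gene Mkrn3 (chr7:62420143-62420171), with 9 of 23:
Cbfa2t3: gagaggcccggttcCgtgcgcccggcgcc
Ldlrad3: ggttacaaaggtccGgcggatccagtttt
Mkrn3: cgaagtgcatcgatTtttgtcttcccacc

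All 5 lay upstream of the start, by 123 bases for Cnep1r1, 132 for Cbfa2t3, 67 for Ldlrad3 and 3 for Mkrn3. Both AML changes were also called in B-ALL, the Cbfa2t3 and Ldlrad3 changes also in T-MPAL, and the Mkrn3 change in no other library.

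The other leukaemia libraries carried many of these variants, in a pattern that differed between the sets. Of the AML-only SNVs, 723 (71.0%, 68.1 to 73.7) were called in B-ALL, 329 (32.3%) in T-ALL, 234 (23.0%) in AUL and 148 (14.5%) in T-MPAL. Of the M-MPAL-only SNVs, 674 (34.5%, 32.4 to 36.6) were called in T-MPAL and between 92 (4.70%) and 126 (6.44%) in each of B-ALL, T-ALL and AUL. In none of these 4 libraries were 207 AML-only SNVs (20.3%, 17.9 to 22.9) and 1235 M-MPAL-only SNVs (63.1%, 61.0 to 65.3). Shared SNVs were found in nearly all: 245 of 416 (58.9%) were called in all 4 others and only 9 (2.16%, 0.994 to 4.07) in none, of which 7 were in dbSNP. INDELs showed the same partners, with 37.1% of AML-only INDELs called in B-ALL and 27.5% of M-MPAL-only INDELs in T-MPAL. The lowest depth of a deposited SNV was 1 read in B-ALL, 1 in T-ALL and 2 in AUL, against 5 in T-MPAL. A call at any depth therefore reached lower in B-ALL, T-ALL and AUL than in T-MPAL. B-ALL, T-ALL and AUL were made from 2000000 cells, like AML, and T-MPAL from 1000000, like M-MPAL. The part of call depth and library group in this pattern was not tested. The labels do not say whether any of these libraries came from the same or related mice.

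**Figure D4:**
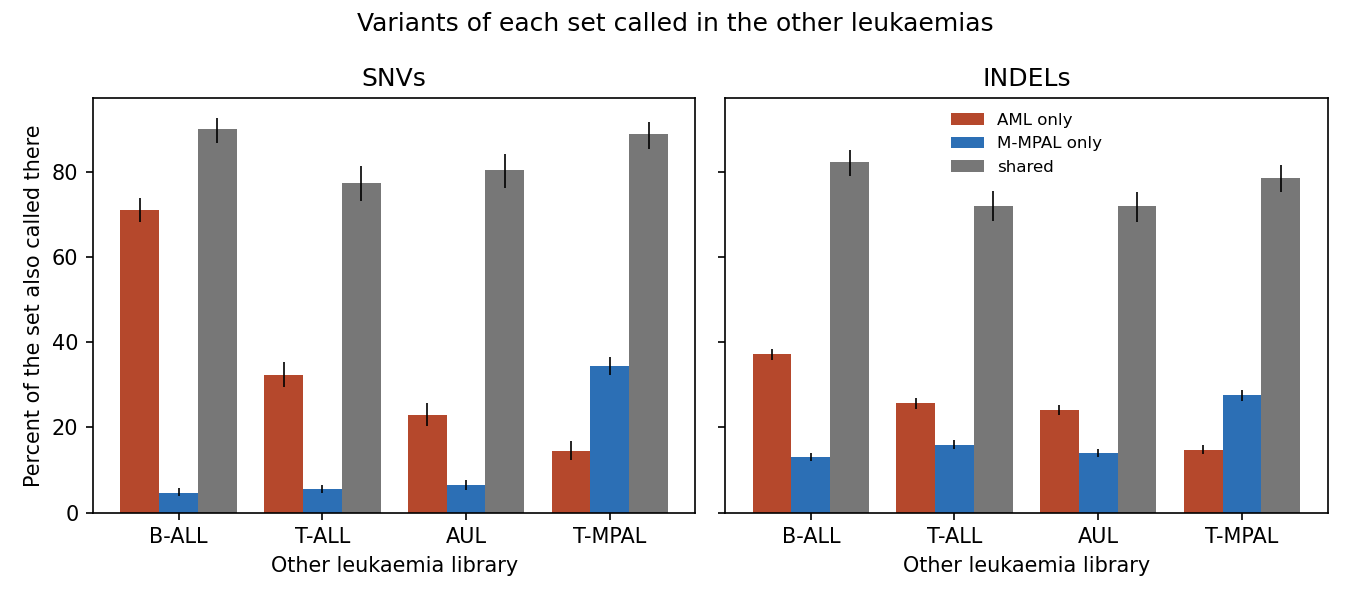
Percent of the SNVs (left) and INDELs (right) of the AML-only, M-MPAL-only and shared sets that were also called at any depth in 4 other leukaemia libraries, with exact 95% Clopper-Pearson intervals. AML-only SNVs are highest in B-ALL (71.0%), M-MPAL-only SNVs in T-MPAL (34.5%), and shared SNVs reach at least 77.4% in each. The lowest deposited SNV depth differs between these libraries: 1 read in B-ALL, 1 in T-ALL, 2 in AUL and 5 in T-MPAL.

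The kinds of base change differed less than the counts. C>T changes were 39.0% (36.0 to 42.0) of AML-only SNVs, 44.9% (42.7 to 47.2) of M-MPAL-only SNVs, 33.7% (29.1 to 38.4) of shared SNVs and 42.4% (37.3 to 47.6) of those of the control alone. T>C changes were 22.4% (19.8 to 25.1) of AML-only and 18.9% (17.2 to 20.7) of M-MPAL-only SNVs, and T>A changes 8.64% (6.98 to 10.5) and 11.7% (10.3 to 13.2). For C>T the intervals of AML only and M-MPAL only did not overlap, and each overlapped that of the control. Without dbSNP variants the C>T share was 42.9% in AML only and 45.7% in M-MPAL only.

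**Figure D5:**
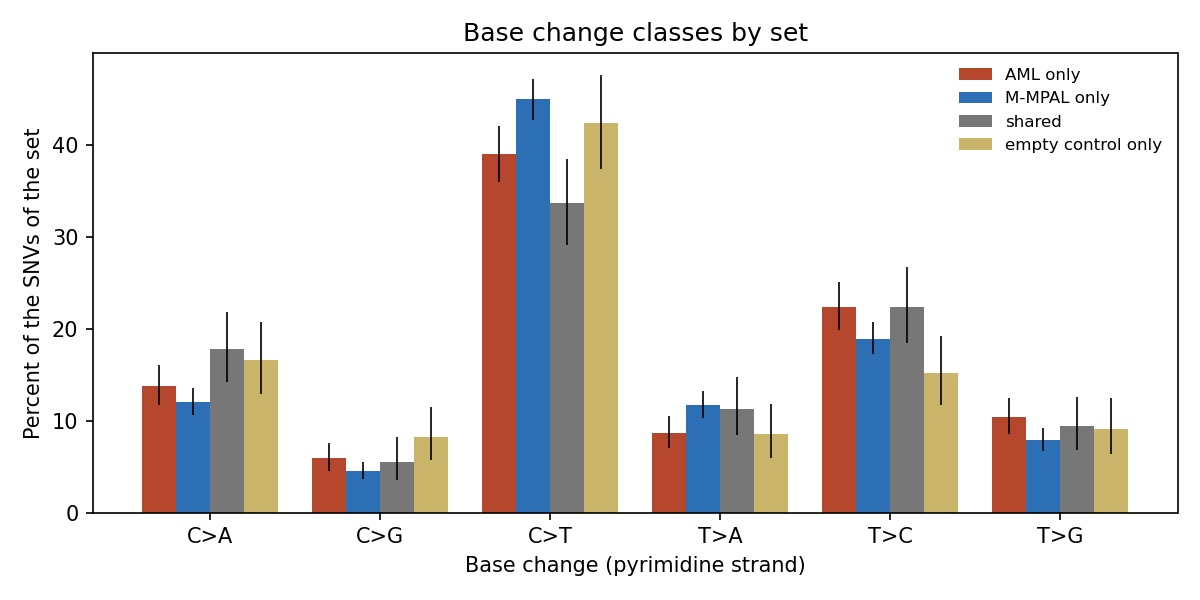
Percent of the SNVs of each set in 6 base change classes, read on the strand of the pyrimidine, with exact 95% Clopper-Pearson intervals, for AML only, M-MPAL only, shared and empty control only. C>T is the most frequent class in each set, with 39.0%, 44.9%, 33.7% and 42.4%.

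Where the variants lay also set the leukaemias apart. Variants listed in dbSNP were 31.4% (28.6 to 34.4) of AML-only SNVs, 14.1% (12.6 to 15.7) of M-MPAL-only SNVs, 67.8% of shared SNVs and 25.6% of those of the control alone. Within 1000 bases of another SNV of the same set lay 21.7% (19.2 to 24.3) of AML-only SNVs, 6.70% (5.63 to 7.90) of M-MPAL-only SNVs and 12.8% (9.59 to 16.6) of the control's. AML-only SNVs were dense between positions 123426442 and 123815172 of chromosome 8, with 43, of which 42 were called in another leukaemia, at a median depth of 60 reads. A further 22 lay in the immunoglobulin kappa locus Igk, where M-MPAL only had 0 and the shared set 0. Of the 21 in the densest window there, all were called in another leukaemia, at a median depth of 70 reads against 26 for all AML-only SNVs. Those depths are values beside the clusters, and their part in them was not tested. The Ugt1a and Mroh2a stretch of chromosome 1 held 41 AML-only, 53 M-MPAL-only and 45 shared SNVs, and 16 of the control alone.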

How the data were processed

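Per the submitters' processing notes the tools and build named are BWA and mm10, with no version. Per the file headers and names, the deposited tables are samtools SNV and INDEL calls and FREEC copy number calls annotated with ANNOVAR, including dbSNP build 142. For each call the authors deposited a quality score on the Phred scale, with the depth and the alternative reads beside it. Call filters, FREEC settings and caller versions were not stated in the labels or headers. The lowest deposited quality was 20.

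Calls were keyed by chromosome, position and both alleles. An allele was shared if it passed in both libraries, and belonged to 1 library only if it was not called at any depth in the other. An INDEL site with 2 alternative alleles is deposited as 2 calls that share their reads. The protein change is that of the transcript with the farthest position. Copy number starts were raised by 1. A gene counted as touched if any base of its RefSeq span (GRCm38.p6) lay in a call. Depth ratios used SNVs with at least 10 reads in each of the 3 libraries and no segmental duplication.

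With 1 library per group no test was run. Intervals at the 95% level are exact, Poisson for counts and Clopper-Pearson for shares. Named are genes with a passing protein-altering SNV, list genes in copy number calls, Mycn, Myc and the receptor loci. Olfactory, vomeronasal, Zfp, Gm and Rik genes were only counted in that choice. Genes of focal copy number calls, introns and gene starts were chosen after their values were seen. The members, the lists and the filter were chosen with earlier results of these data known. Alternatives changed the depth, quality and share minimums and the treatment of repeats, segmental duplications, dbSNP, clusters, control, other libraries and chromosomes. As a check of the sorting code alone, 16000 of 16000 planted variants in 10 simulated sets of call tables were assigned to the right set. The same alleles were planted in each set, at values clear of the filter limits, so borderline calls were not tried. Tables were handled with pandas 2.3.3 and numpy 2.4.6 under Python 3.11.15, intervals came from scipy 1.17.1, and plots from matplotlib 3.10.9.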

Additional observations from a re-analysis of the deposited data

Results flagged for a closer look

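A pair of signals lay outside the calls compared above and exceeded the empty control. In M-MPAL, 2 SNV calls in Mycn exons (G307G and Q390Q) lay below the quality minimum, where the control and AML had 0. On chromosome X, which was outside the comparison, M-MPAL had 149.178 Mb at 1 copy, against 0 Mb in AML and 0.685 Mb in the control. Groups of 1 library allow no search for outlying samples.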

How the results depend on the processing

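The SNV ratio kept its direction in all 11 settings. With a quality minimum of 20 the SNVs numbered 3228 (AML only), 3332 (M-MPAL only, ratio 0.969) and 930 (shared), and the INDELs 42951, 32221 and 7095. Protein-altering variants were then 22, 27 and 9, and 11 genes had one in both. Without alleles called in the 4 other leukaemias, SNVs were 207, 1235 (ratio 0.168) and 9, INDELs 1852, 2352 (ratio 0.787, reversed) and 32, and protein-altering variants 5, 9 and 0. Outside repeats, SNVs were 448, 1013 and 187, and INDELs 88, 100 (ratio 0.880, reversed) and 69. At 20 reads or more, shared SNVs were 272 and INDELs 1741, 1443 and 106. With segmental duplications kept, shared SNVs were 1060, protein-altering variants 18 in AML only and 13 shared, and 10 genes had one in both. C>T shares moved to 42.9% (AML only) and 44.0% (shared) without dbSNP variants and to 47.5% (M-MPAL only) outside repeats. Median read shares moved to 0.450 (AML only) and 0.538 (shared) without dbSNP variants, and to 0.458 (AML only) and 0.455 (M-MPAL only) outside repeats. With calls of at least 50 kb, gains numbered 114 in AML and 97 in M-MPAL, and M-MPAL losses 2 with 0.131 Mb. The cause of these moves was not tested, except that stricter settings keep fewer calls by construction. Of all recomputed values, 114 were classed as the same, 46 as moved and 2 as reversed. The class of same values kept their direction but allowed shifts in size. Among them, AML-only SNVs went from 1019 to 732 at 20 reads or more, and to 1414 with segmental duplications kept. Ignoring AML calls under 5 reads and leaving out the Ugt1a stretch were added after the data were seen. Neither gave a value classed as moved or reversed. No paired analysis was possible because each group has 1 library. Calls with under 10 reads or an alternative read share under 0.2 did not pass the filter, so that a subclone below that share was left out of the sets.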
